A study of Mus musculus with 6 samples.

Results

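The radial glia identity genes are 10 genes by which cortical progenitors are commonly recognized: Pax6, Sox2, Hes1, Hes5, Nes, Vim, Fabp7, Slc1a3, Ptprz1 and Prom1. They form a list of names, with no threshold on a measured value. Of the 10, 9 were among the 17068 genes of the count table, and Sox2 was not analysed here. In E12.5 lateral cortex, none of the 9 passed the test between the groups, and only 0.152% of all genes did. The mean of the libraries labelled Foxp1cKO was above that of the controls for 6 members and below it for 3. Slc1a3, an astroglial glutamate transporter, was the 1 member of 9 above every control in both of these libraries, where 11.5% of all genes were. It had a fold of 1.29 (95% interval 1.07 to 1.57). Fabp7, a lipid-binding protein of radial glia, had the largest difference in the other direction, a fold of 0.741 (0.553 to 0.995), but its control values reached down to those of the libraries labelled Foxp1cKO.

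Radial glia (RG) are the stem cells of the embryonic cortex. Their cell bodies lie along the ventricle and their fibers reach the pial surface. Early RG divide symmetrically and renew themselves, and later they divide asymmetrically to give neurons directly or through intermediate progenitors. The state is held by transcription factors such as Pax6, which patterns the dorsal telencephalon, and by the repressors Hes1 and Hes5, through which Notch signaling restrains neuronal differentiation. The fibers carry the intermediate filament proteins nestin (Nes) and vimentin (Vim). Fabp7, Slc1a3 and Ptprz1 become prominent as RG take on glial properties, and Prom1 (CD133) is found on the apical membrane.

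The tissue came from female embryos of the c57/bl6 strain at E12.5. Controls 1, 2 and 4 carried 1 floxed Foxp1 allele (Foxp1 fl/+), control 3 carried 2 (Foxp1 fl/fl), and all 4 lacked Cre. The 2 embryos labelled Foxp1cKO were Foxp1 fl/fl with Emx1Cre, which drives recombination in dorsal telencephalic progenitors and their progeny and not in the other cells of the dissected tissue. The comparison asks whether genes of RG identity change when Foxp1, a forkhead transcription factor, is removed from early progenitors. Library totals were 50076008 to 78346979 counts on genes, and values below are in CPM, the counts of a library scaled to a common total with edgeR's TMM factors.

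The libraries labelled Foxp1cKO did not have less Foxp1 RNA, with 83.2 and 76.8 CPM against a control range of 59.7 to 79.1 CPM (log2 fold change 0.24, standard error 0.129, edgeR adjusted p = 0.468). These counts cover the whole gene and not the deleted part alone, so the groups are called by their labels. Emx1, a marker of the dorsal telencephalon, was present in each library, at 68.8 to 135 CPM. Control 3 held the most RNA of ventral telencephalon, with a summed level over 11 markers of 904 CPM against 255 to 565 CPM in the other 5 libraries. Control 4 resembled the libraries labelled Foxp1cKO in red blood cell RNA, with 3544 CPM summed over 9 genes, against 3849 and 4143 CPM there and 1100 to 1451 CPM in controls 1 to 3. The part of these differences in any result was not tested, and results are also given without controls 3 and 4. In bulk tissue, fewer cells of a type and less RNA per cell cannot be told apart.

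Levels of different genes were compared per kilobase of exon, since longer transcripts collect more reads. The length was the union of all annotated exons of a gene, such as 11694 bases for Pax6 and 1250 for Fabp7. Where the transcripts present are shorter than this union, the level is understated, and transcript lengths were not measured. On this scale, the filament and lipid-binding genes stood far above the regulators. Fabp7 was highest, at 216 ± 42.3 CPM per kb in the controls (mean ± SD, n = 4), followed by Vim at 186 ± 15.5 and Nes at 117 ± 14.2. These 3 genes lay above 98.8% of all genes in the table. Ptprz1 came next at 36.4 ± 9.03 CPM per kb, and then Hes5 at 25.2 ± 6.64, Prom1 at 23.1 ± 3.70, Slc1a3 at 19.6 ± 1.93, Pax6 at 18.6 ± 2.84 and Hes1 at 15.2 ± 5.26. Hes1, the lowest, was still above 77.8% of all genes. Of the 8 pairs of neighbors in this order, the control values were separate in only 2, Vim above Nes and Nes above Ptprz1. The other 6 pairs overlapped, so the order of Fabp7 and Vim, and that of each pair of neighbors from Ptprz1 down to Hes1, was within the spread between embryos. Beyond its neighbor Hes5, the lowest control of Ptprz1 (28.1) was above the highest control of Prom1 (27.5).

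**Figure D1:**
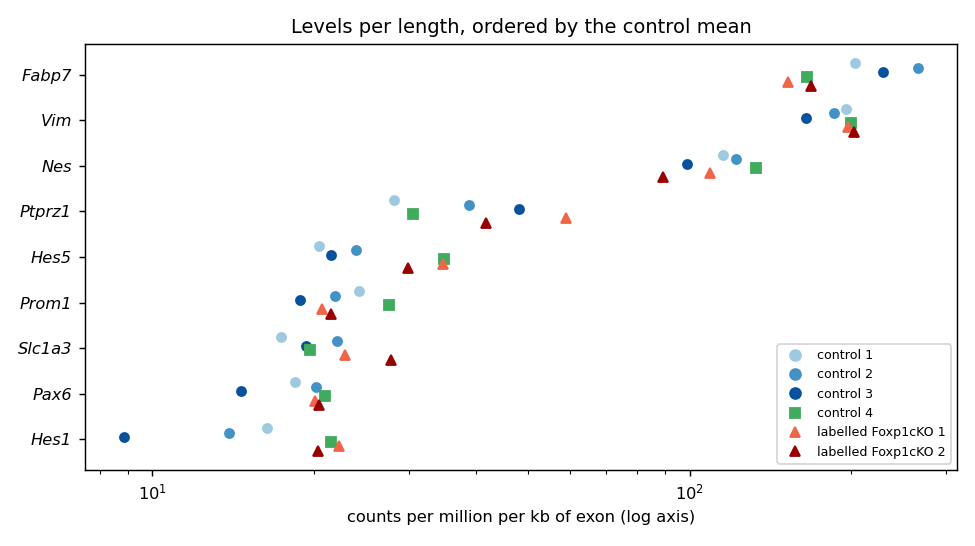
Level of each radial glia identity gene in CPM per kb of exon (log axis), ordered by the control mean, with 1 point per library. Fabp7, Vim and Nes form the upper group in all 6 libraries; Fabp7 lies between 152 and 266 and Hes1 between 8.86 and 22.2.

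The top of this order differed between libraries. The ratio of Fabp7 to Vim per kb was 1.04, 1.43, 1.39 and 0.83 in controls 1 to 4, and 0.77 and 0.83 in the libraries labelled Foxp1cKO. Fabp7 was thus the more abundant of the pair in controls 1 to 3, and Vim in control 4 and in both libraries labelled Foxp1cKO.

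Among the regulators, Pax6 (ENSMUSG00000027168.21, GRCm38 chr2:105668900-105697364, plus strand) was measured at 215, 236, 171 and 245 CPM in controls 1 to 4, and at 235 and 239 CPM in the libraries labelled Foxp1cKO. Both of the latter lay inside the control range, and the lowest value was that of control 3. The log2 fold change was 0.13 (standard error 0.143, 95% interval -0.21 to 0.46). A rise above 1.38-fold or a fall below 0.863-fold lay outside this interval.

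Hes1 (ENSMUSG00000022528.7, chr16:30064384-30067796, plus strand), the Notch effector that oscillates in dividing progenitors, had 33.3, 28.3, 18.1 and 43.8 CPM in the controls. It had 45.3 and 41.5 CPM in the libraries labelled Foxp1cKO, which were above controls 1 to 3 and on either side of control 4. The controls spanned 1.28 on the log2 scale, the widest control range of any member, and more than the fold change of 0.49 (standard error 0.300, -0.22 to 1.20). Hes5 (ENSMUSG00000048001.7, chr4:154960923-154962371, plus strand), the Notch effector most specific to neural progenitors, showed the same arrangement. Its controls had 27.8, 32.7, 29.4 and 47.6 CPM, and the libraries labelled Foxp1cKO had 47.4 and 40.8 CPM, above controls 1 to 3 and below control 4. Its log2 fold change was 0.36 (standard error 0.217, -0.15 to 0.87). The Hes5 exons share 433 bases with a transcript on the opposite strand, Gm20421, for which no level was available. The strand setting of the counting was not given in the sources used here, so how reads in these bases were counted is not known.

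Notch signaling reaches its targets through RBPJ, which binds DNA at a core of the letters TGGGAA. RefSeq windows of 250 bases before to 50 after each transcription start (GRCm38.p6) were searched on both strands for this core, for the forkhead motif TGTTTAC and for the hypoxia-response core ACGTG. Windows were at hand for 9 of the 10 members, 11 windows in all, and Hes1 was the member without 1. The RBPJ core was in the windows of 3 members, Hes5, Prom1 and Fabp7, and in 25.6% of all 32851 windows. ACGTG was in windows of Pax6 and Slc1a3, and in 19.6% of all windows. TGTTTAC was in 0 member windows and in 3.65% of all windows. Hes5 was the only member with the core on both strands, and its sequence before the annotated gene start is shown with that of Fabp7, whose mean difference had the opposite sign; capitals mark the core or its reverse complement.
Hes5 upstream, chr4:154960673-154960922, plus strand: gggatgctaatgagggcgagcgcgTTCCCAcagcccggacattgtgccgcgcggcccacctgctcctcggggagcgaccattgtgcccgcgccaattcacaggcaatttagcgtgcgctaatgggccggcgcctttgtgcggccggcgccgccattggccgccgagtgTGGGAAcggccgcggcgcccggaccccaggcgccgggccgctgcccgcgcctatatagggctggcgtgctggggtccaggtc
Fabp7 upstream, chr10:57784673-57784880, plus strand: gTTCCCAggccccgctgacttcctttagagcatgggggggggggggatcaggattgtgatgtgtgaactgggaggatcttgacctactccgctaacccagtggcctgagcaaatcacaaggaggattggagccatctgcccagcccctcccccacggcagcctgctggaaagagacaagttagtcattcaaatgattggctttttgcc
In Hes5 the cores begin at positions -226 (reverse strand) and -82 (plus strand) from the start, and the Fabp7 match lies at the far edge of its window. These letter matches describe the sequence, and nothing in the RNA counts measures binding.

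Without scaling by length, the filament genes had the highest mean CPM of the members in the controls. In the libraries labelled Foxp1cKO, the mean of Ptprz1 was above that of Nes in CPM (716 against 637). Per kb of exon, Nes was the higher of these there as well (99.3 against 50.3). Nes (ENSMUSG00000004891.16, chr3:87971078-87980451, plus strand) had 739, 784, 635 and 851 CPM in the controls, and 701 and 573 CPM in the libraries labelled Foxp1cKO. The second of these was the lowest value of all 6, and the first lay inside the control range. The log2 fold change was -0.24 (standard error 0.140, -0.57 to 0.089). Vim (ENSMUSG00000026728.9, chr2:13573927-13582826, plus strand) had 927, 879, 783 and 948 CPM in the controls, against 938 and 962 CPM. Its log2 fold change was 0.10 (standard error 0.0975, -0.13 to 0.33), the narrowest interval of the 9 genes. Its controls spanned only 0.28 on the log2 scale. Nes and Vim, whose proteins assemble into the same filaments, thus had mean differences of opposite sign, neither of which passed the test.

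Of the genes of glial character, Fabp7 (ENSMUSG00000019874.11, chr10:57784881-57788450, plus strand) had 254, 333, 286 and 207 CPM in the controls. It had 190.5 and 210.0 CPM in the libraries labelled Foxp1cKO, 1 below and 1 just above control 4, and both below controls 1 to 3. The log2 fold change was -0.43 (standard error 0.180, -0.86 to -0.0072). Slc1a3 (ENSMUSG00000005360.14, chr15:8634124-8710764, minus strand), which encodes the glutamate transporter GLAST, had 148, 188, 165 and 168 CPM in the controls and 195 and 237 CPM in the libraries labelled Foxp1cKO. These did not overlap the controls, although the first was close to control 2. Both libraries lay above all controls for 11.5% of the genes in the table and below all controls for 13.1%, and 1 of 9 members above is close to that background. The log2 fold change of Slc1a3 was 0.37 (standard error 0.119, 0.092 to 0.65), and its adjusted p in edgeR's test was 0.296. Slc1a3 was the only member whose difference in group means exceeded the range of its controls on the log2 scale. The share of all genes with this was not determined.

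Ptprz1 (ENSMUSG00000068748.7, chr6:22875502-23052916, plus strand), a receptor tyrosine phosphatase of progenitors and glia, varied widely within both groups. Controls 1 to 4 had 401, 554, 684 and 435 CPM, and the libraries labelled Foxp1cKO had 838 and 595 CPM. The first was the highest of all 6, and the second lay below control 3. The log2 fold change was 0.47 (standard error 0.235, -0.088 to 1.02). Prom1 (ENSMUSG00000029086.15, chr5:43993620-44102032, minus strand) had 174, 157, 135 and 198 CPM in the controls, against 149 and 154 CPM, both inside the control range. Its log2 fold change was -0.13 (standard error 0.147, -0.48 to 0.22). The antisense gene Gm16401 shares 424 exon bases with Prom1, but its own control level was 2.31 ± 0.245 CPM.

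**Figure D2:**
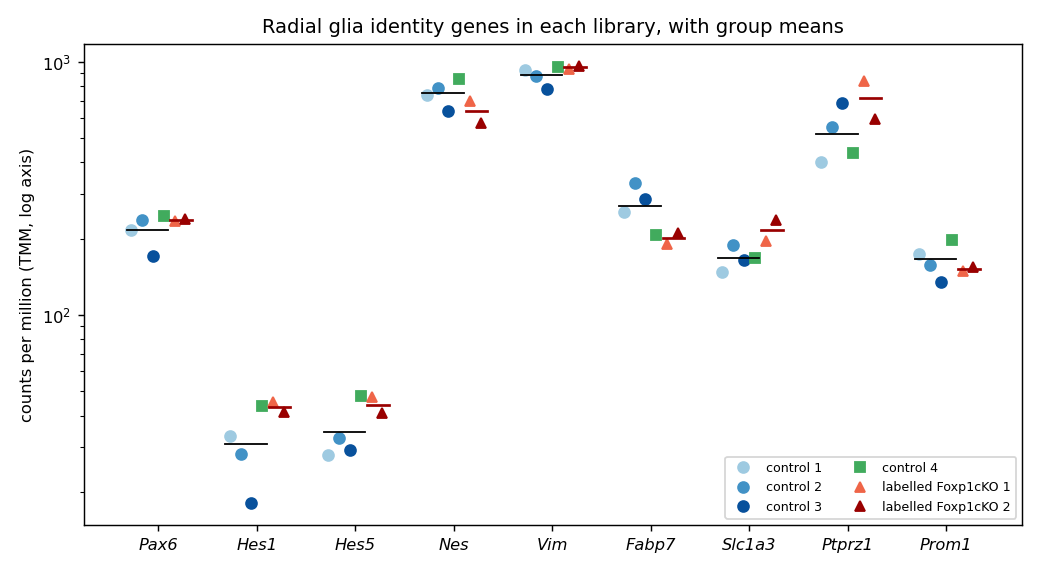
CPM of each radial glia identity gene (TMM scaled, log axis), with 1 point per library and a line at each group mean (black for the 4 controls, dark red for the 2 libraries labelled Foxp1cKO). Slc1a3 is the gene whose groups do not overlap, and control 4 (square) lies near the libraries labelled Foxp1cKO for Hes1, Hes5 and Fabp7.

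Of the 9 members, 0 passed the adjusted p of 0.05 in edgeR's quasi-likelihood test, and 0.152% of all genes did (26 of 17068, all 26 higher). Adjusted p-values of the members from edgeR ran from 0.296 for Slc1a3 to 0.741 for Pax6. At an unadjusted p under 0.05 there were 2 members, Slc1a3 higher and Fabp7 lower, where 13% of all genes passed. Fabp7 was no longer among them with DESeq2's size factors, the filter on low counts, VST values, or any 1 library left out other than control 4. Slc1a3 was lost without the second library labelled Foxp1cKO, where its log2 fold change was 0.21. DESeq2 likewise called 0 members, against 3.36% of the genes it tested (507 of 15067), and limma on the VST values called 0. The median log2 fold change was 0.13 over the members and -0.0044 over all genes, whose quartiles were -0.16 and 0.19. Among controls, the SD of log2 CPM had a median of 0.234 over the members and 0.199 over all genes. For 8 of the 9 members, the range of the single controls on the log2 scale was wider than the difference between the group means. Single values range more widely than means do, and the share of all genes with this was not determined. Counting error was at most 2.76% of a value, since each member had at least 1316 counts in each library, below the SD among controls of that member.

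**Figure D3:**
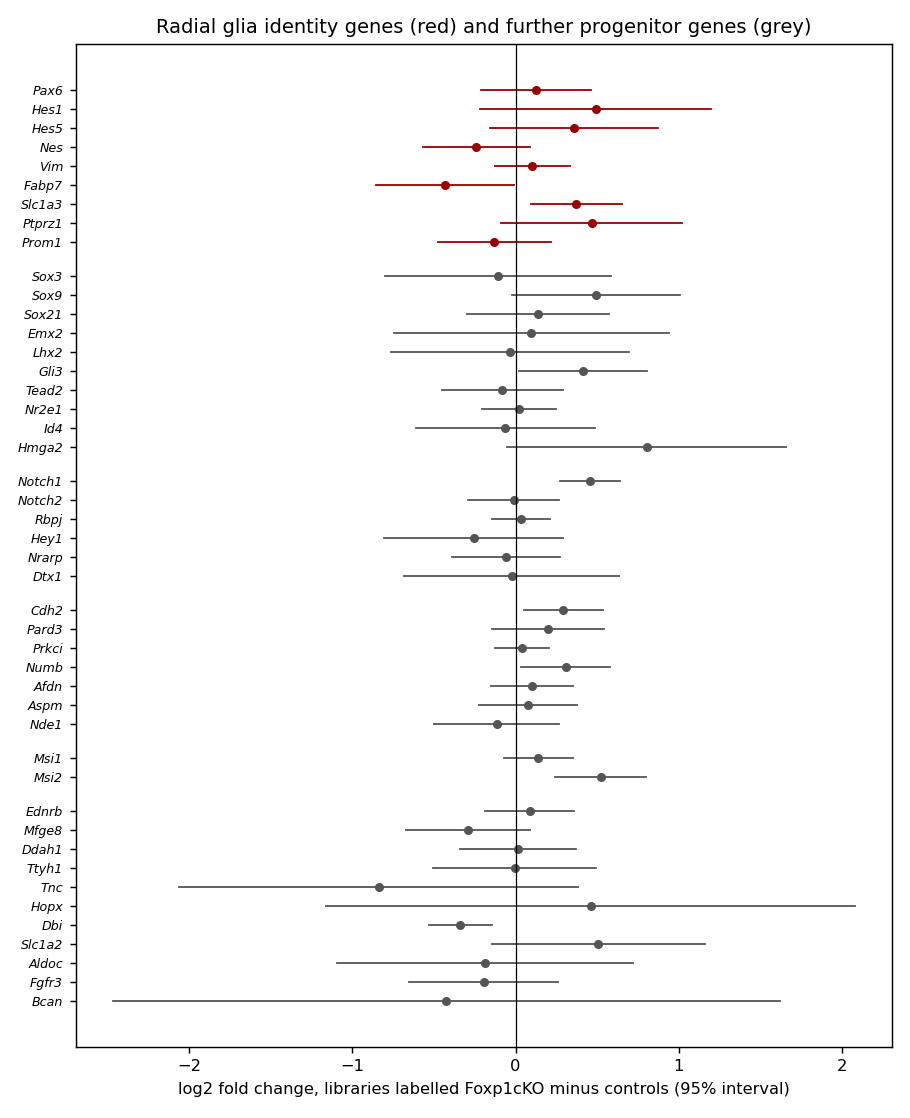
Log2 fold change of the libraries labelled Foxp1cKO against controls with its 95% interval from edgeR, for the 9 radial glia identity genes (red) and 36 further progenitor genes (grey, grouped by role). Among the members, the intervals of Slc1a3 (0.092 to 0.65) and Fabp7 (-0.86 to -0.0072) leave out 0, before any adjustment for multiple tests.

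The direction of Pax6, Hes1, Hes5 and Prom1 depended on which control they were set against. Relative to control 1, the mean of the libraries labelled Foxp1cKO was higher for 6 members and lower for 3, and relative to control 2 it was again 6 and 3. Against control 3, the Foxp1 fl/fl embryo, 7 were higher and 2 lower. Against control 4, 3 were higher and 6 lower. The sign was the same against all 4 controls for 5 members: Vim, Slc1a3 and Ptprz1 higher, Nes and Fabp7 lower. However, Vim differed by only 0.0029 from control 4 and Nes by only -0.0029 from control 3 on the log2 scale. The share of all genes with 1 sign against all 4 controls was not determined. Hes1 was the most variable, with log2 differences of 0.38, 0.62, 1.26 and -0.015 against controls 1 to 4. Slc1a3 differed by 0.54, 0.19, 0.39 and 0.36, and Fabp7 by -0.35, -0.73, -0.52 and -0.050. Control 4 was thus the embryo nearest to the libraries labelled Foxp1cKO for Hes1, Hes5 (-0.11), Fabp7 and Vim. It was not the nearest for Pax6, Nes, Slc1a3, Prom1 or Ptprz1 (0.70).

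**Figure D4:**
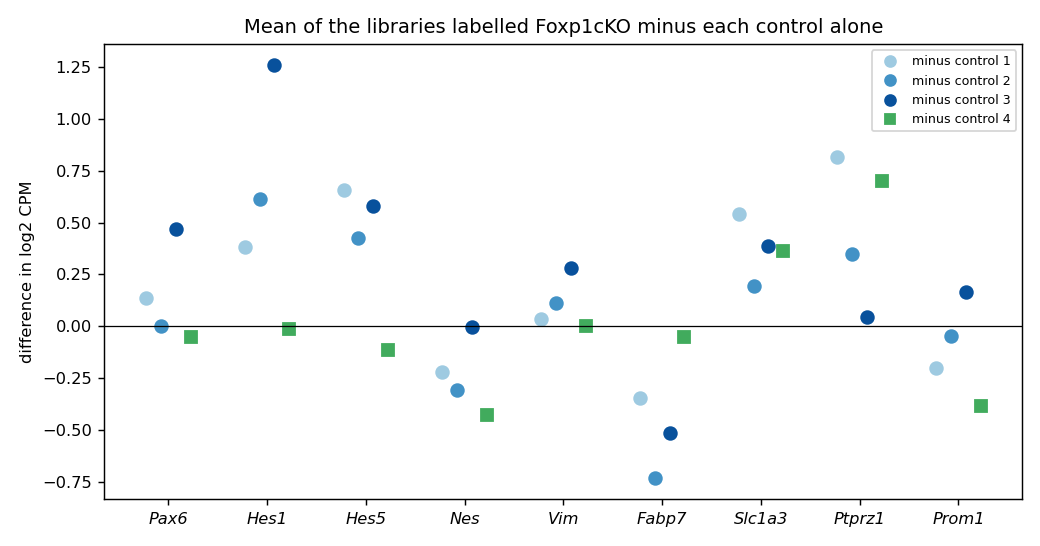
Mean log2 CPM of the 2 libraries labelled Foxp1cKO minus the log2 CPM of each control alone, for each radial glia identity gene. Points of Slc1a3, Vim and Ptprz1 lie above 0 and those of Nes and Fabp7 below 0 for all 4 controls. Of these, Vim against control 4 (0.0029) and Nes against control 3 (-0.0029) lie almost at 0. The other 4 genes have points on both sides.

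Each library held an extreme value of some member, and controls 3 and 4 held the most. Control 4 had the highest CPM of 4 members (Pax6, Hes5, Nes and Prom1), and control 3 had the lowest CPM of 4 (Pax6, Hes1, Vim and Prom1). Control 1 was lowest for Hes5, Slc1a3 and Ptprz1, and control 2 was highest for Fabp7. Each library labelled Foxp1cKO was the highest for 2 members and the lowest for 1. Without controls 3 and 4, 0 members passed the adjusted threshold in edgeR, which 0.369% of all genes did. In that fit 5 had an unadjusted p under 0.05 (Hes1, Hes5, Fabp7, Slc1a3 and Ptprz1), against 21.8% of all genes. There, the log2 fold change of Slc1a3 was 0.36 and that of Fabp7 was -0.55.

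Together the members made up 0.288% to 0.336% of all counts in each library. Their summed level was 2920, 3191, 2906 and 3143 CPM in controls 1 to 4, and 3339 and 3052 CPM in the libraries labelled Foxp1cKO. The second of these lay inside the control range, and the ratio of the means was 1.05. Other cell classes of the cortex differed more between controls. Summed over 14 neuronal genes, such as Dcx and Map2, the level was 4571, 5553, 6149 and 3240 CPM in the controls, and 4437 and 4577 CPM in the libraries labelled Foxp1cKO. The ratio of member to neuronal RNA was accordingly 0.639, 0.575, 0.473 and 0.970 in the controls, against 0.752 and 0.667. Control 4 had the highest ratio and control 3 the lowest, and both libraries labelled Foxp1cKO lay between them.

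Intermediate progenitors are made by RG and lose RG genes as they form. The 11 markers of this class, Eomes (Tbr2) and Neurog2 among them, had a summed level of 1322, 1374, 1092 and 1092 CPM in the controls and 998 and 1117 CPM in the libraries labelled Foxp1cKO. The fold changes of 10 of the 11 were below 0 (median -0.21), 3 were below all controls in both libraries (13.1% of all genes), and 0 passed edgeR's threshold. There were 3 at an unadjusted p under 0.05 (13% of all genes) and 1 by DESeq2 (3.36%). Proliferation genes, which RG share with other dividing cells, had fold changes below 0 for 15 of 15 (median -0.17), with 0 past the threshold by edgeR, 0 at an unadjusted p under 0.05 and 0 by DESeq2. Their summed level was 3889 to 5719 CPM in the controls, and 4390 and 4138 CPM in the libraries labelled Foxp1cKO lay inside that range. The direction of these genes was opposite against control 3 alone, where the median difference was 0.13.

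**Figure D5:**
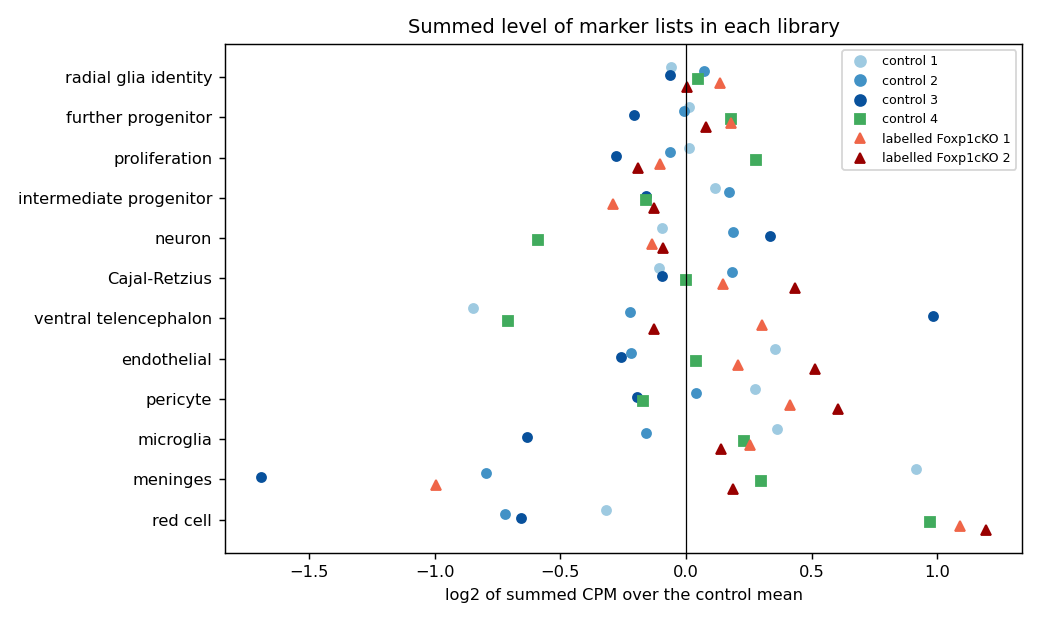
Summed CPM of each marker list in each library, as the log2 ratio to the control mean. The sum of the radial glia identity genes lies within a narrow band in all 6 libraries. Vim, Nes and Ptprz1, the members with the highest CPM, weigh most in this sum. Single members can vary more than this sum, such as Hes1 at 18.1 to 43.8 CPM in the controls. The red cell, meninges and ventral telencephalon lists spread widely, with control 4 (square) beside the libraries labelled Foxp1cKO in the red cell list.

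Of 37 further genes known from cortical progenitors, 36 were in the table and Sox1 was not analysed here. Their fold changes were above 0 for 20 and below 0 for 16, with a median of 0.028, and 0 passed in edgeR. At an unadjusted p under 0.05, which 13% of all genes passed, there were 6, with Gli3, Notch1, Cdh2, Numb and Msi2 higher and Dbi lower. Both libraries labelled Foxp1cKO lay above all controls for 7 genes (Sox9, Gli3, Notch1, Cdh2, Numb, Msi2 and Slc1a2) and below all controls for Dbi alone, against 11.5% and 13.1% of all genes. DESeq2 called 3 of the 36, Notch1, Msi2 and Dbi, and 3.36% of all genes it tested.

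By role, 6 of 10 transcription factors were higher (median 0.061), 2 of 6 Notch pathway genes (-0.018), 6 of 7 genes of apical polarity and the spindle (0.10), both RNA-binding Musashi genes (0.33) and 4 of 11 genes typical of more glial RG (-0.19). The receptor Notch1, named here after its values were seen, ranked first of the 36 by edgeR's p. It had 288, 314, 310 and 318 CPM in the controls and 441 and 402 CPM in the libraries labelled Foxp1cKO. Its log2 fold change was 0.46 (standard error 0.0784, 0.27 to 0.64), with an adjusted p of 0.152 in edgeR and of 9.16e-05 in DESeq2. Among the other Notch genes, Rbpj was at 0.032 and Notch2 at -0.011 on the log2 scale, and Hey1, a repressor of the same family as Hes1 and Hes5, was at -0.26 (standard error 0.233).

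The genes at either end of these lists were named by rule. Hmga2, a chromatin protein of early stem cells, had 121, 155, 117 and 289 CPM in the controls and 335 and 262 CPM in the libraries labelled Foxp1cKO. The log2 fold change was 0.80 (standard error 0.362, edgeR adjusted p = 0.407). Control 4 again lay with the latter, as for Hes1 and Hes5. Msi2, an RNA-binding protein of progenitors, had 237, 253, 289 and 310.0 CPM in the controls against 407 and 375 CPM, with no overlap. This is a log2 fold change of 0.52 (standard error 0.119), with an adjusted p of 0.242 in edgeR and 0.0110 in DESeq2. The glutamate transporter Slc1a2, which is related to Slc1a3, stood at 0.51 on the log2 scale (standard error 0.278).

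At the lower end, Dbi, an acyl-CoA-binding protein abundant in RG, had 152, 158, 148 and 136 CPM in the controls and 118 and 116 CPM in the libraries labelled Foxp1cKO. Both lay below all controls (log2 fold change -0.34, standard error 0.0826, adjusted p = 0.242 in edgeR and 0.0404 in DESeq2). The matrix protein Tnc had 28.7, 37.8, 42.7 and 9.80 CPM in the controls, and 17.5 and 15.7 CPM in the libraries labelled Foxp1cKO were both above control 4 (log2 fold change -0.84, standard error 0.519). Bcan, a proteoglycan that is scarce at this age, ranged from 0.851 to 7.43 CPM in the controls and stood at 1.01 and 4.09 CPM in the libraries labelled Foxp1cKO (-0.42, standard error 0.866).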

How the data were processed

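RNA from E12.5 lateral cortex of 4 Cre-negative controls and 2 embryos labelled Foxp1cKO was sequenced by the authors as stranded paired-end libraries. Reads were aligned to mm10 with STAR, counted on genes with HTSeq 0.9.1 in union mode, and filtered for low expression. The authors deposited whole counts of 17068 genes, not normalized, and variance-stabilized (VST) values of the same genes on a log2-like scale. Their model held litter, which was not used here.

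Counts were tested with edgeR 4.0.16's quasi-likelihood test in R 4.3.3, with TMM factors, group as the only term, all genes, Benjamini-Hochberg adjustment and a threshold of 0.05. Log2 CPM used a prior count of 2. DESeq2 1.42.0, and limma 3.58.1 on the VST values, were alternatives. Positions and exon lengths came from GENCODE M21 (GRCm38, the assembly of mm10), which held 17047 of the identifiers. Named genes are the members, Foxp1, the 3 largest and 3 smallest fold changes among further progenitor genes with a mean of at least 10 counts, any of these past the threshold, and the first 2 genes of each other list, of which some are not reported here. Outside this rule, further progenitor genes were also named from their values, for an unadjusted p under 0.05 or a place outside all controls. Rbpj, Notch2 and Hey1 were named beside Notch1, also outside the rule. Members and lists were chosen with earlier results of these data known.

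The libraries differed by more than sampling noise: chi-square over genes, divided by the number of genes, gave 25.9 to 193 for pairs of controls and 31.4 for the pair labelled Foxp1cKO. The labels number the embryos and give no litter. Intervals of counting cover counting error only. Alternatives tried were DESeq2, other scalings, a filter on low counts, VST values, single libraries left out and a replicate block. The crossed block, controls 1, 2 and 4 taken singly and the fit without controls 3 and 4 were added after seeing the data.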

Additional observations from a re-analysis of the deposited data

Results flagged for a closer look

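Of 39 sets of control values examined for a library far from the others, 2 were flagged, and chance flags about 1 in 20. The summed level of the 6 Notch pathway genes was 744 CPM in control 3, against 812, 815 and 806 CPM in controls 1, 2 and 4, and its gap was 0.867 of the control range. The summed level of 9 red cell genes was 3544 CPM in control 4, against 1451, 1100 and 1150 CPM in controls 1 to 3, with a gap of 0.856 of the range. No radial glia identity gene had such a library among its controls.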

How the results depend on the processing

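No member passed the threshold under DESeq2, DESeq2's size factors, total counts, the filter on low counts, limma on VST values or with any library left out. The number of genes past the threshold over the whole table, 26, was 507 under DESeq2, 63 without controls 3 and 4, and 2 to 96 with 1 library left out (2 without control 2, 96 without control 4). Among further progenitor genes it was 3 under DESeq2 and 0 to 1 with 1 library left out (Hmga2, without control 4). The members' median of 0.13 became -0.050 against control 4 alone and 0.035 to 0.19 with 1 library left out. Bcan, a gene of few counts, was reversed to 0.25 without control 1 and to 0.24 without the first library labelled Foxp1cKO, over a range of -1.78 to 0.25; the cause was not tested.

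Replicate numbers 1 and 2 occur in both groups, but the deviations of libraries with the same number had a correlation of -0.117, and the numbers were not taken to pair embryos. Numbers 3 and 4 occur only among controls, so a block fit takes the group difference from the libraries numbered 1 and 2 alone. Little is left in such a fit to measure the spread. With the replicate block, 0 genes passed over the whole table (3027 at an unadjusted p under 0.05), 0 members did (4 unadjusted), and the members' median was 0.073. With crossed numbers, 1301 genes (7.62%) passed, among them 4 members and 13 further progenitor genes. Each member had at least 1316 counts in each library.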

Other observations

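Other cell classes gave further values. Cajal-Retzius genes, which mark early-born neurons of the cortical surface, had fold changes above 0 for 8 of 8 (median 0.36), with Reln at 0.28 and Trp73 at 0.30, and 0 passed in edgeR (2 at an unadjusted p under 0.05, 1 in DESeq2). Of 7 pericyte genes, 6 were above 0 (median 0.48), with Pdgfrb at 0.42 and Rgs5 at 0.61, and again 0 passed in edgeR (3 unadjusted, 1 in DESeq2). Over all genes, 13% were under that unadjusted p, DESeq2 called 3.36% of those it tested, and the median log2 fold change was -0.0044. Of 10 endothelial genes, Flt1, a receptor for vascular growth factors that is also the 1 gene of any list past edgeR's threshold, had 12.5 to 18.1 CPM in the controls and 44.6 and 54.2 CPM in the libraries labelled Foxp1cKO (log2 fold change 1.64, standard error 0.159, adjusted p = 0.0179). Pecam1 stood at 0.65 and Cdh5 at 0.0035 on the same scale, and the endothelial median was 0.014.

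The remaining lists had no gene past edgeR's threshold. Medians were 0.20 for microglia (Csf1r 0.12, Cx3cr1 -0.011), 1.10 for red cells (Hba-a1 1.11, Hba-a2 0.67), -0.21 for meninges (Col1a1 -0.45, Col1a2 -0.48) and 0.12 for ventral telencephalon (Dlx2 0.28, Dlx1 0.12). They were -0.013 for neurons (Dcx -0.26) and -0.87 for choroid plexus and hem, of which Ttr and Wnt3a were not analysed here. That median rests on 2 genes, Lmx1a at 0.18 and Rspo2, named after its values were seen, at -1.91. At an unadjusted p under 0.05 (13% of all genes) were 3 of 9 red cell genes, 2 of 10 microglia genes and 1 of these 2. DESeq2 called 1 red cell gene (3.36% of all genes it tested). Emx1 stood at -0.0097, Eomes at -0.21, Neurog2 at -0.085, Mki67 at -0.038 and Top2a at -0.19. Nkx2-1, a ventral patterning gene named after its values were seen, had 13.2 CPM in control 3 and 0.216 to 1.07 CPM in the other 5 libraries.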
